A study of Caenorhabditis elegans with 2 samples.

Results

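The genes described here encode the meiotic chromosome axis and the synaptonemal complex of Caenorhabditis elegans, and REC-8 occupancy around them was read from peak lists of chromatin immunoprecipitation followed by sequencing. The members were a fixed list of 10 genes among 19973 nuclear protein-coding genes. They comprised 4 genes of HORMA-domain axis proteins (him-3, htp-1, htp-2 and htp-3) and 6 genes of the central region (syp-1 to syp-6). For each gene, every peak overlapping the annotated gene or the 1000 bp on either side, called its window here, was taken. The 2 samples were biological replicates of 1 group: whole young adult hermaphrodites of strain YL581, harvested 50 hours after release from L1 starvation. All worms were transgenic and expressed REC-8 with a C-terminal GFP-FLAG tag. The tag was precipitated with an anti-GFP antibody, although another label gives rec-8 as the antibody. Whole worms hold both germ line and somatic nuclei, and no strain without the tag was analysed here, so the groups below are groups of genes and not of samples.

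Meiotic chromosomes are organised along a protein axis on which cohesin and HORMA-domain proteins are assembled. REC-8 is a meiosis-specific kleisin, the kind of subunit that closes the cohesin ring. HTP-3 recruits the other HORMA-domain proteins HIM-3, HTP-1 and HTP-2 to the axis, and the SYP proteins then bridge the axes of paired homologs as the central region of the synaptonemal complex. The peaks below report where tagged REC-8 was found on DNA near the genes for these partners, and say nothing of where the encoded proteins bind.

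Sequence is shown for the HORMA-domain gene htp-2, the only member on chromosome IV with a peak in the list made from both replicates pooled, and for 2 short stretches in front of members without a pooled peak. All are from the RefSeq copy of WBcel235, plus strand. The htp-2 sequence is the 300 bases centred on the pooled summit (chrIV:6421078-6421377), beyond the 3′ end of htp-2, and capitals mark its 123 bases that belong to the pseudogene Y73B6BL.45. The stretch in front of him-3 (chrIV:6977319-6977507) separates it from pgl-1, a P granule gene on the opposite strand. The stretch in front of syp-2 (chrV:5536244-5536486) separates it from cox-16, also on the opposite strand. In these 2 stretches capitals mark the last 50 bases before the gene start.
htp-2 downstream peak: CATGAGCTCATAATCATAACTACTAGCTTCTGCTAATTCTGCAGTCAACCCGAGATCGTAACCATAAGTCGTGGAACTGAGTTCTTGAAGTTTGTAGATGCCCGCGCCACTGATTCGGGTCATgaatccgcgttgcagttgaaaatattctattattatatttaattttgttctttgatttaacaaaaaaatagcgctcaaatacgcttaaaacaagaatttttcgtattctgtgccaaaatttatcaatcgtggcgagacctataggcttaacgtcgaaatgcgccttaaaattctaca
him-3 intergenic stretch: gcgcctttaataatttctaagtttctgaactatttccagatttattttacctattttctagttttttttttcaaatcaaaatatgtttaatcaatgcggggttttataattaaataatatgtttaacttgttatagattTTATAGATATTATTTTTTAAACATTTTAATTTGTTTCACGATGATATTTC
syp-2 intergenic stretch: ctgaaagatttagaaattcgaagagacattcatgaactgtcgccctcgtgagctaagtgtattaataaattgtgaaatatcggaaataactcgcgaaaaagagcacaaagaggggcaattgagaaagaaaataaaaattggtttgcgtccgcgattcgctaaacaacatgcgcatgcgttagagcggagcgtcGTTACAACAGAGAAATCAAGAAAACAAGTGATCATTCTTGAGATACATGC
GC content was 37.3% in the htp-2 sequence, 20.6% in front of him-3 and 39.5% in front of syp-2, against a median of 38.7% for 300 bases centred on all nuclear pooled summits.

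The pooled list held 10019 peaks, the replicate 1 list 17532 and the replicate 2 list 14069. The submitters describe these 3 lists as peaks together with background, so a weak entry in them is not an established binding site. A stricter list of 739 peaks, the thresholded list, was cut by the authors on the irreproducible discovery rate, a measure of how well peak ranks repeat. The value given for each peak is the signal in the authors' file, whose scaling is not stated, so a signal is read only beside others of its own list. Nearly all peaks of a list had 1 width (430 bp for 99.7% of the pooled peaks, 436 bp for replicate 1 and 444 bp for replicate 2), so the intervals do not measure how far REC-8 extends. Read depth is unknown, and a gene without a peak cannot be read as a gene without REC-8. No test was made between the gene groups, because the members were chosen with earlier results known and genes are not replicates of a condition.

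Peaks were found at most members, and syp-1 (59.7), syp-4, syp-5 and syp-6 had higher pooled signals than every HORMA-domain gene. syp-3 and syp-2 did not stand apart in this way: the highest pooled signal of syp-3 (46.9) was below that of htp-3 (51.2), and syp-2 had no pooled peak. In replicate 1, htp-2 (33.0), htp-3 (32.4) and him-3 (28.4) were above syp-1 (28.2) and syp-3 (28.0). In the pooled list 7 of the 10 members had at least 1 peak, 2 of the 4 HORMA-domain genes and 5 of the 6 syp genes. The share over all protein-coding genes was 43.4%. In the thresholded list 2 members had a peak, syp-4 and syp-6, and no HORMA-domain gene did, against 5.08% of all genes. In the replicate 1 list the members with a peak were 4 of 4 HORMA-domain genes and 5 of 6 syp genes, against 60.7% of all genes. In the replicate 2 list they were 1 of 4 and 6 of 6, against 52.9%. The highest pooled signal had a median of 86.6 over the 5 syp genes with a peak and 46.0 over the 2 HORMA-domain genes with one, beside 52.5 over all 8671 genes with a pooled peak. These medians leave out genes without a peak.

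The gene groups also differed in whether the replicates held a peak at the same place. At the syp genes 7 of 8 replicate 1 peaks overlapped a replicate 2 peak, while at the HORMA-domain genes 0 of 5 did. Over all peaks of replicate 1 the share was 36.0%. Read from replicate 2, which held more peaks at the syp genes, 7 of 14 syp peaks and 0 of 2 HORMA-domain peaks overlapped a replicate 1 peak. For all members that was 7 of 16 (43.8%), near the 44.4% over all peaks of replicate 2. Counted by gene, 5 syp genes (all but syp-2) and none of the HORMA-domain genes had such a shared peak, against 30.5% of protein-coding genes. With an overlap of at least 50% of the shorter peak, 4 syp genes kept one and syp-3 did not. All 3 pooled peaks at HORMA-domain genes had a partner in replicate 1 and none in replicate 2. Of the 8 pooled peaks at syp genes, 6 had partners in both lists and 2 in replicate 2 alone. For all members that was 6 of 11 (54.5%), near the 54.6% of the whole pooled list with partners in both. The contrast between the gene groups here rests on 3 HORMA-domain peaks.

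**Figure D1:**
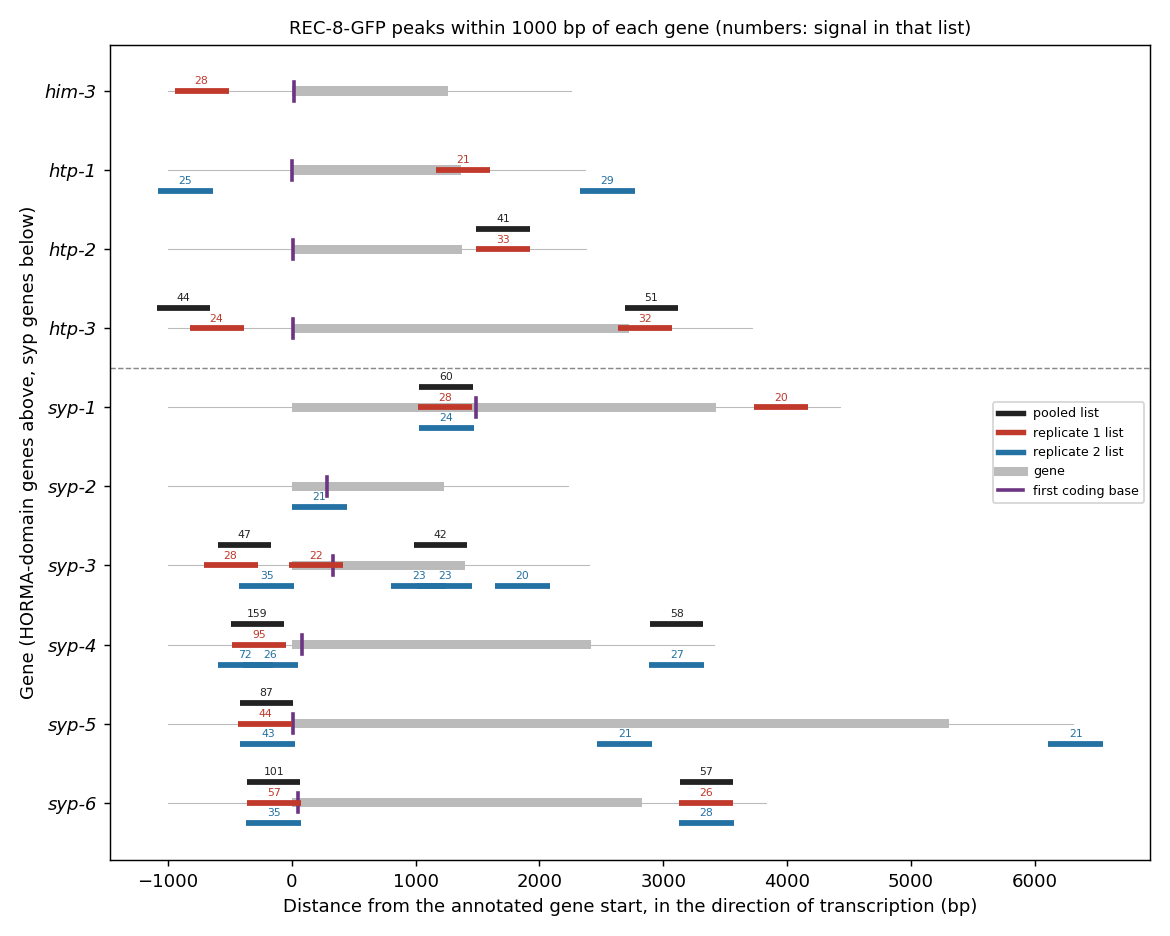
Peaks around each member, drawn by distance from the annotated gene start in the direction of transcription (bp), with the gene as a grey bar, its first coding base as a purple mark and each peak as a bar of its list's colour labelled with its rounded signal. At syp-1, syp-4, syp-5 and syp-6 the bars of all 3 lists stack at the same place, while the peaks of htp-1, htp-2, htp-3 and him-3 are at different places or in 1 replicate alone.

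**Figure D2:**
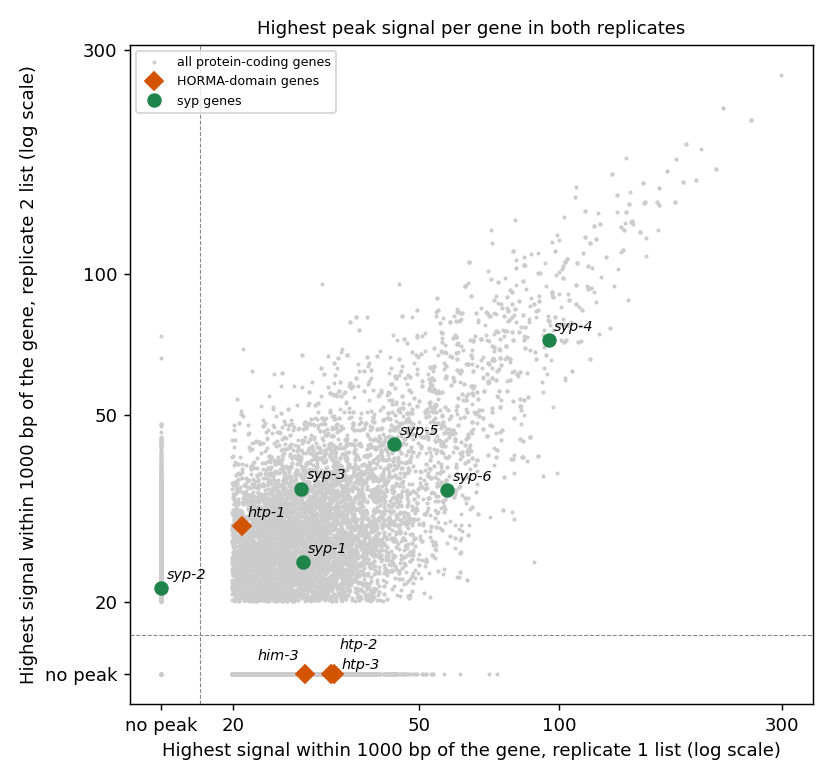
Highest signal within 1000 bp of each gene in the replicate 1 list (horizontal, log scale) and the replicate 2 list (vertical, log scale), with all protein-coding genes as grey points and genes without a peak drawn in the margins. syp-4 lies far up both axes, and him-3, htp-2 and htp-3 lie in the margin of genes without a replicate 2 peak.

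Among the central region genes, syp-4, which encodes a component that the central region needs to assemble, had the highest signal of all members in every list. The gene (WBGene00019247) lies on chromosome I from 6847511 to 6849923 in WBcel235, on the plus strand. Its pooled peak (6847018 to 6847447) had a signal of 159, rank 190 of 10019. In replicate 1 the signal was 95.0 (rank 120) and in replicate 2 it was 72.2 (rank 281), so both replicates placed it near the top. In the pooled list 98.7% of protein-coding genes had a lower highest signal, in replicate 1 99.1% and in replicate 2 98.2%.

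The syp-4 peak also lay on a short RNA gene. Its pooled summit was 278 bp upstream of the syp-4 start and inside the snRNA gene H27M09.6 (6847137 to 6847303, minus strand), which is overlapped on the other strand by the ncRNA gene H27M09.7. The replicate 1 summit was inside H27M09.6 too, and the 2 replicate 2 summits were 2 bp and 36 bp from it. A pooled summit lay within 250 bp of 55 of 129 snRNA genes (42.6%), and a thresholded one of 22 (17.1%). Of the 401 words of 30 bases in this pooled peak, 69 occurred more than once in the nuclear genome. The start of the neighbour H27M09.5, on the opposite strand, was 274 bp from the pooled summit. Whether the peak belongs to the snRNA gene, to the start of syp-4 or to that of H27M09.5 cannot be told apart from its position. The next syp-4 peak had a pooled signal of 57.7 and was 696 bp past the 3′ end, with its summit in a coding exon of rpb-5, an RNA polymerase subunit gene whose start was 210 bp away. It had a partner in replicate 2 (26.7) and none in replicate 1.

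syp-5 and syp-6 encode related central region proteins with partly overlapping roles, and each had a peak just upstream of its start in all 3 lists. At syp-6 (WBGene00019002, I, 6566125 to 6568954, plus strand) the upstream signal was 101 in the pooled list (rank 612), 57.5 in replicate 1 (rank 537) and 34.5 in replicate 2 (rank 2048). Replicate 2 thus placed it lower than replicate 1. The pooled summit was 145 bp upstream of the syp-6 start and 193 bp before its first coding base. The gene mei-2, which encodes a subunit of the meiotic spindle severing complex katanin, starts on the opposite strand 272 bp away, and its start was 128 bp from the same summit. A second syp-6 peak, 520 bp past the 3′ end, was at 57.0, 25.8 and 28.0 in the pooled, replicate 1 and replicate 2 lists. It lay 83 bp from the start of ipgm-1, a glycolytic enzyme gene.

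At syp-5 (WBGene00021832, I, 3193528 to 3198838, minus strand) the upstream peak had a signal of 86.6 in the pooled list (rank 867), 44.3 in replicate 1 (rank 1074) and 43.4 in replicate 2 (rank 974). Both replicates gave it a similar place in their order. The lowest signal of the thresholded list was 92.8, so this peak stood a little below it. The pooled summit was 205 bp upstream of the syp-5 start, and no other protein-coding start was nearer. Replicate 2 alone held 2 weaker peaks in the window, 1 in a coding exon (21.0) and 1 in the neighbouring gene Y54E10A.11 (21.1).

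syp-1 and syp-3, which encode further central region proteins, had weaker peaks. At syp-1 (WBGene00006375, V, 16404274 to 16407701, plus strand) the signal was 59.7 in the pooled list (rank 2394), 28.2 in replicate 1 (rank 5646) and 24.3 in replicate 2 (rank 7627). The 3 summits lay within the annotated 5′ UTR, and the pooled one was 243 bp before the first coding base. That base lies 1489 bp from the gene start on the genome. The neighbour F13A7.14, on the same strand, ends inside syp-1 before these summits. Replicate 1 held a second syp-1 peak that replicate 2 lacked, 521 bp past the 3′ end in a coding exon of F26D2.3, with the lowest signal of its list (19.9) and the piRNA gene 21ur-12126 at 42 bp from its summit. Before the first coding base, the upstream pooled summits of syp-5 and syp-4 lay at 212 bp and 361 bp. At syp-3 (WBGene00006377, I, 8663045 to 8664445, minus strand) the upstream peak had signals of 46.9, 28.0 and 34.8 in the pooled, replicate 1 and replicate 2 lists. The replicate summits there lay 292 bp apart, and the peaks overlapped by 148 bp. A further replicate 1 peak in an intron (21.9) overlapped the same replicate 2 peak by 43 bp. The pooled summit was 383 bp upstream of syp-3 and 148 bp from the start of F39H2.3 on the opposite strand, and 60 of its 401 words of 30 bases were repeated in the genome. A second pooled peak of syp-3, in a coding exon (42.4), overlapped 2 peaks of replicate 2 (both 22.6) and none of replicate 1. Replicate 2 alone also held a syp-3 peak of 20.2, with its summit 460 bp past the 3′ end in a coding exon of mrt-1.

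syp-2 was the exception among the central region genes. The gene (WBGene00006376, V, 5536487 to 5537717, plus strand) had no pooled or replicate 1 peak, and a single replicate 2 peak in its 5′ UTR with a signal of 21.3, rank 11712 of 14069. The nearest pooled peak was 3170 bp away, inside cft-1. The intergenic stretch printed above, between syp-2 and cox-16, therefore held no peak summit in any list.

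The axis scaffold gene htp-3 (WBGene00002034, I, 4827072 to 4829791, plus strand) had the highest pooled signal of the HORMA-domain genes, 51.2 at rank 4093. That peak lay 186 bp past the 3′ end, 158 bp from the start of the next gene F57C9.4, and its replicate 1 partner had a signal of 32.4. Upstream, a pooled peak of 44.2 lay 874 bp before the htp-3 start, in a coding exon of tofu-4, a gene of piRNA biogenesis on the opposite strand. Its replicate 1 partner (23.8) had its summit 607 bp before the htp-3 start. Replicate 2 held no peak in the htp-3 window, so of the replicate lists only that of replicate 1 held a partner at either position. The pooled list was made from both replicates, and what replicate 2 adds to these pooled signals was not tested.

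htp-1 and htp-2 encode very similar proteins, of which HTP-1 is known for coupling homolog pairing to synapsis. Their coding sequences, each 1056 bases long, were identical at 90.3% of aligned positions, with a longest identical run of 62 bases. No other pair within either gene group exceeded 45.8%. Of the 30-base words of the htp-1 gene, 59 of 1340 occurred more than once in the nuclear genome, so most of both genes can be told apart at that length. How the authors treated reads with several matches is not stated. In the pooled peak interval downstream of htp-2 all 401 words occurred once.

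Neither htp-1 nor htp-2 had a peak that both replicates shared. At htp-2 (WBGene00002033, IV, 6419522 to 6420898, plus strand) the pooled peak had a signal of 40.7, rank 9415 of 10019, and the replicate 1 peak 33.0, rank 3072 of 17532. Both summits lay about midway between htp-2 and the start of the protein-coding gene puf-11, 330 bp and 329 bp past the htp-2 end, and replicate 2 held no peak there. The pseudogene Y73B6BL.45 lies in the same gap, inside the pooled peak interval. At htp-1 (WBGene00002032, IV, 5390189 to 5391557, minus strand) replicate 1 held 1 peak at the 3′ end (20.9), and replicate 2 held 2 others, in the neighbour ZK616.5 (24.9) and beyond the 3′ end at the ncRNA gene F41H10.36 (28.9). The summit of the last of these lay 1180 bp past the htp-1 end, outside the window. The pooled list held none in the window, and its nearest peak (42.4), 1056 bp from htp-1, overlapped that replicate 2 peak. The htp-1 peaks of replicate 2 thus lay at other places than that of replicate 1.

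him-3 (WBGene00001862, IV, 6977508 to 6978765, plus strand), a core component of the axis, had 1 peak in replicate 1 and none in the other lists. Its signal was 28.4, rank 5463 of 17532, and its summit lay 728 bp upstream in an intron of pgl-1. The nearest pooled peak was 2965 bp from him-3. The AT-rich stretch between him-3 and pgl-1 printed above held no summit.

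**Figure D3:**
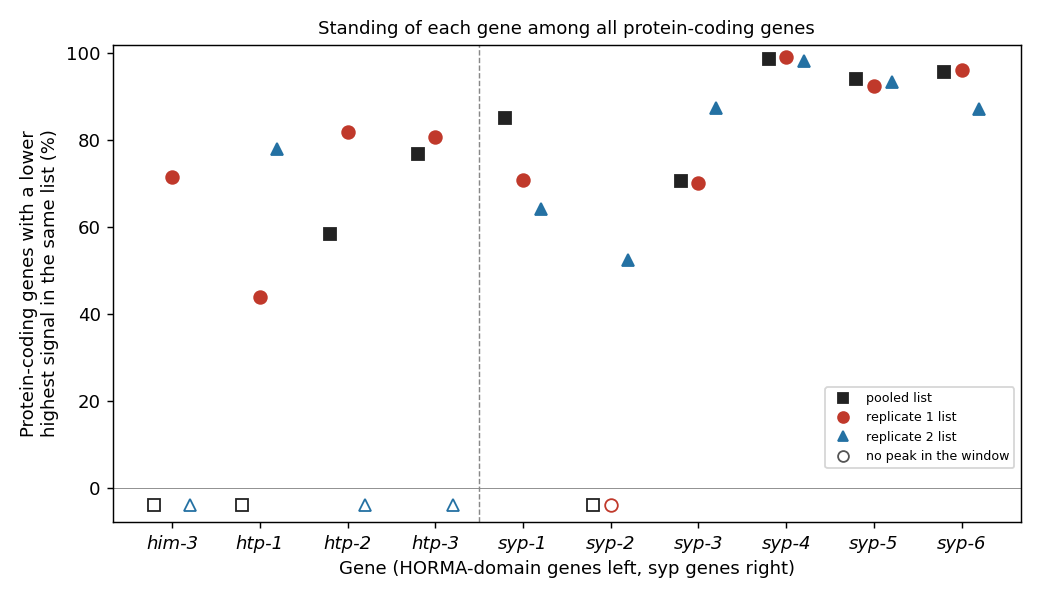
Share of all protein-coding genes (%) whose highest signal was lower than that of the named gene, for each member and list, with open symbols below 0 for members without a peak in that list. syp-4, syp-5 and syp-6 lie at 87.2% or higher in all 3 lists, and each HORMA-domain gene lacks a peak in at least 1 list, as does syp-2. In replicate 1, htp-2, htp-3 and him-3 lie above syp-1 and syp-3.

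The 3 highest pooled signals among the members, at syp-4, syp-6 and syp-5, were all upstream of the gene start. A pooled summit lay within 1000 bp upstream of the start in 4 of 6 syp genes (syp-3, syp-4, syp-5 and syp-6) and in 1 of 4 HORMA-domain genes (htp-3), against 13.6% of protein-coding genes. For those 4 syp genes an upstream summit was also present in each replicate list. In the replicate lists, him-3 and htp-3 had upstream summits in replicate 1 alone and htp-1 in replicate 2 alone. Of the 11 pooled peaks at members, 3 were nearest to a start of the member itself (syp-1, syp-5 and the exonic peak of syp-3) and 8 to a start of a neighbouring protein-coding gene. For 8 members the next protein-coding gene upstream lay on the opposite strand within 1000 bp, so an upstream peak there cannot be assigned to 1 of the pair. This arrangement was shared by members with an upstream peak in both replicates (syp-3, syp-4 and syp-6) and by members without one (him-3, htp-1, htp-2, htp-3 and syp-2).

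Chromosome and window size differed between both gene groups. On chromosome I, which holds 4 syp genes and htp-3, 53.5% of protein-coding genes had a pooled peak and 39.9% a peak shared between replicates. On chromosome IV, which holds the other 3 HORMA-domain genes, the shares were 41.4% and 29.9%, and on V, with syp-1 and syp-2, they were 35.7% and 23.0%. The windows had a median length of 4622 bp for the syp genes, 3373 bp for the HORMA-domain genes and 4027 bp for all genes. Per kb of window, the syp genes had 0.280 pooled peaks, the HORMA-domain genes 0.204 and all genes 0.133. In replicate 1 the order of both groups turned, with 0.280 for syp and 0.340 for HORMA-domain genes, and in replicate 2 the values were 0.489 and 0.136. With 2000 bp on each side the pooled peaks were 12 at syp genes and 7 at HORMA-domain genes, in place of 8 and 3. These counts do not show which group was denser, because the syp windows are longer in total (28.6 kb against 14.7 kb at 1000 bp). Peaks per kb were not computed at 2000 bp, so the pooled order is given for 1000 bp alone and may not hold at the wider setting. The part of chromosome and window length in the contrast was not tested.

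**Figure D4:**
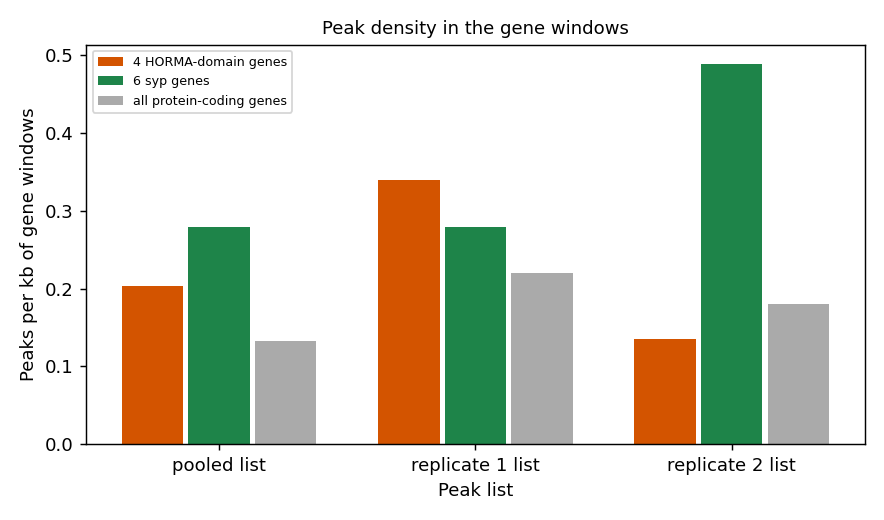
Peaks per kb of gene windows for the 4 HORMA-domain genes, the 6 syp genes and all protein-coding genes in 3 lists, as bars from 0. The syp genes are above all genes in every list shown, while the HORMA-domain genes are above them in the pooled and replicate 1 lists and below them in replicate 2.

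None of the members' pooled peaks held the B box letters. The letters GTTCGANNC are the core of the internal B box promoter element of tRNA genes, and were searched on both strands in 300 bases centred on each summit. They were present at 35.9% of the nuclear thresholded peaks, 6.83% of the nuclear pooled peaks and 0 of the 11 pooled member peaks. So few member peaks cannot be set apart from the pooled share, and only 2 of them are in the thresholded list. In the 300 bases upstream of gene starts they were present in 1.43% of protein-coding genes. GC content was highest at the upstream peak of syp-4 (52.3%), which overlaps the snRNA gene, and ranged from 32.3% at syp-1 to 40.7% at the upstream peak of htp-3 for the rest.

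Other genes of the pathway were taken from a list of 20 cohesin, axis and synapsis genes, of which 19 matched the annotation by symbol. A pooled peak was found at 16 of the 19, against 43.4% of all genes. A thresholded peak was found at 2, against 5.08%, and a peak shared between replicates at 12, against 30.5%. The 2 with a thresholded peak were zhp-3, which encodes a RING finger protein of crossover sites (pooled signal 128, rank 348), and smc-3, a core cohesin subunit gene (113, rank 466). Next in pooled signal were wapl-1, the gene of a cohesin release factor (83.1), and rec-8 itself (80.8). The worms were transgenic for tagged REC-8, and whether added copies of rec-8 contribute to its signal was not tested. syp-4 was the only member above zhp-3, and syp-5 stood between smc-3 and wapl-1. The HORMA-domain gene htp-3 stood below 12 of the 19.

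The genes outside the list whose standing in the pooled and both replicate lists was nearest to that of syp-4 were H27M09.5, ari-1.4, rga-2, zen-4 and sor-3. Likeness was the distance between percentile ranks over these 3 lists. H27M09.5 is the neighbour of syp-4 and shares its peak, so its values are the same. For ari-1.4, rga-2, zen-4 and sor-3 the pooled signals were 173, 170.1, 156 and 155, and the distances were 0.310 to 0.326 percentile points.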

How the data were processed

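Both replicates and the pooled data were deposited as peak lists in narrowPeak form for ce11, which is WBcel235. Per the file listing deposited with the samples, each list was derived from the alignments of 1 replicate or of both and from 1 further file that it does not describe. The labels name a possible control experiment, which was not analysed here. Which aligner and which peak caller were used is not given in the sources used here. The deposited signal per peak is the authors' value, of unstated scaling. The ce10 lists were not used, since the gene models are those of WBcel235. From the lists, windows of 1000 bp around Ensembl release 115 genes, ranks by signal (ties at the lowest rank), overlaps of at least 1 bp between replicates and distances from summits were computed with Python 3.11.15, pandas 2.3.3 and NumPy 2.4.6. Coding sequences were aligned globally with Biopython 1.88. Every nuclear chromosome's last peak lay within the reference length, and each member's coding sequence began with ATG in the RefSeq genome. The overlap counts were tested on simulated data. Depth per sample is unknown. The named genes were all members, the pathway genes with a thresholded peak and the 4 with the highest pooled signal, short RNA genes within 250 bp of a member summit, and the 5 genes nearest in standing to the strongest member. Neighbouring genes were named for position after the peaks had been seen. The members, the pathway list and the alternatives were chosen with earlier results of these data known. Leaving out peaks near short RNA genes and the searches of GC content, the B box letters and coding identity were chosen after the peaks had been seen. No p-value was computed.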

Additional observations from a re-analysis of the deposited data

How the results depend on the processing

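No paired analysis was possible because there is 1 group of 2 replicates. The number of members with a pooled peak, 7, ranged from 5 to 9 over the alternatives run: windows of 250 bp or 2000 bp, summits in place of intervals, the stronger 50% of the list, merged peaks, no peaks near short RNA genes (chosen after seeing the data), and each replicate's own list, which gave 7 without replicate 1 and 9 without replicate 2. Members with a thresholded peak went from 2 to 1 in the stronger 50% of that list and to 1 without peaks near short RNA genes, where syp-4 was lost. HORMA-domain genes had 3 pooled peaks, 7 with 2000 bp windows, 1 in the stronger 50%, and 2 to 5 in the replicate lists. syp genes had 8, 12 with 2000 bp windows, 6 in the stronger 50%, and 8 to 14 in the replicate lists. The median highest signal of HORMA-domain genes was 51.2 both with 2000 bp windows and in the stronger 50%, where htp-3 alone remained. In the replicate lists, whose signals are on other scales, it was 30.4 in replicate 1 and 28.9 in replicate 2. The replicate 2 value is that of htp-1 alone, at the peak whose summit lay outside the window. The median of syp genes was 93.8 in the stronger 50%, 59.7 without peaks near short RNA genes, and 34.7 to 44.3 in the replicate lists. With 2000 bp windows the highest signal at htp-2 was 51.5, and htp-1 gained a pooled peak of 42.6. With an overlap of 50% of the shorter peak, 5 of 13 replicate 1 peaks at members were shared in place of 7. Unknown depth limits every statement on a missing peak.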
